A study of Mus musculus with 16 samples.

Results

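The genes described here are the clustered histone genes of the mouse, taken as every row of the expression table whose gene symbol begins with Hist1h, Hist2h, Hist3h or Hist4h. This rule found 70 of the 38371 gene identifiers in the table. They comprised 6 H1, 20 H2A, 19 H2B, 12 H3 and 13 H4 genes, of which 56 lie on chromosome 13 (Hist1), 10 on chromosome 3 (Hist2), 3 on chromosome 11 (Hist3) and 1 on chromosome 6 (Hist4h4). GENCODE vM21 lists 66 of them as protein-coding, Hist1h2al and Hist3h2bb-ps as processed pseudogenes, Hist1h2aj as an unprocessed pseudogene and Hist2h2bb as a long noncoding RNA. Single rows were chosen by their symbols, but the family itself was selected on the FPKM of these same libraries, whose genotype and depot differences were known, so the tests below place each gene among all genes of the table and are no independent support for its direction.

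The study deleted HuR (encoded by Elavl1), an RNA-binding protein, in fat cells and measured RNA in 16 libraries from mice 12 weeks old. The mutant was AdipoQ-Cre;HuRf/f (HuR-FKO) and the control (Ctrl) was the littermate HuRf/f, which carries both floxed alleles without Cre; the floxed line had been crossed to C57BL/6 for 2 generations. Epididymal white fat (eWAT) and inguinal white fat (iWAT) each gave 3 HuR-FKO and 3 Ctrl libraries, brown fat (BAT) gave 2 of each, and the RNA of every library was pooled from 3 mice. Because Cre is driven by the adiponectin promoter, recombination is limited to adipocytes, while the libraries hold RNA of whole tissue with its vessel, blood and immune cells. In such samples, fewer cells of a type and less RNA per cell cannot be told apart.

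Nucleosomes wrap DNA around a core of H3 with H4 and H2A with H2B, and H1 binds the linker DNA between cores. The genes of the clusters are known as replication-dependent: they lack introns, are transcribed mainly in S phase, and give messenger RNAs that end in a conserved stem-loop, bound by the protein Slbp, in place of a poly(A) tail. Some of them are also known to give longer polyadenylated transcripts in cells that do not divide.

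The stem-loop sets the H4 genes apart from the other classes in sequence, so examples are shown here. A 16-base stem-loop was found in the annotated transcripts of 45 of the 70 genes, in 8 distinct forms, and the 4 forms found in 12 H4 genes occurred in no other class. The most frequent form was present in 25 genes of H1, H2A, H2B and H3, and the most frequent H4 form in 7 genes. The transcript sequences are from GENCODE vM21 (GRCm38, strand of the gene), written 5′ to 3′ with the stem-loop in capitals and 5 bases on either side.
Hist1h4h (H4): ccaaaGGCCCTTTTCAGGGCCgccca
Hist1h4i (H4): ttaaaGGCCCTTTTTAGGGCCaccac
Hist1h4b (H4): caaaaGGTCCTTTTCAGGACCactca
Hist1h4a (H4): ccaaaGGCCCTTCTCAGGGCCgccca
Hist1h1c (H1): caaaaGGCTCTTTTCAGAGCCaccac
Hist2h2aa1 (H2A): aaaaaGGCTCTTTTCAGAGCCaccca
Hist1h3e (H3): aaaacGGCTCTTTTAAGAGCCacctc

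In 23 of the 70 genes the annotated transcript continued for at least 100 bases after the stem-loop, and the transcripts of Hist1h4k, Hist1h2bc and Hist2h2be held none. These are GENCODE transcripts, and the deposited loci of some members, among them Hist1h4d, Hist1h2bh and Hist1h1e, were shorter. Hist1h4d, for example, was deposited at chr13:23581598-23581990, where GENCODE ends it at 23582735. The lengths by which the deposited FPKM were divided need not be those described here.

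The promoters also differed by class. Windows of 300 bases (250 before to 50 after the start, RefSeq, GRCm38.p6) were matched for 62 genes and searched on both strands. GGTCCG, a core part of the element known to be bound by the H4 regulator Hinfp, occurred in 11 of 12 H4 windows, in 2 of the other classes (Hist1h2bh and Hist1h3i) and in 8.25% of all 32851 windows. CCAAT was in all 50 windows of the other classes, in 3 of 12 H4 windows and in 37.4% of all windows. The octamer ATTTGCAT, known as a binding sequence of Oct factors, was in 6 of 16 H2B and 7 of 18 H2A windows against 1.74% of all, and AAACACA, the H1 box, was in 5 of 6 H1 windows against 7.18% of all. TATAAA was in 35 of 62 windows against 13.6% of all. A match of letters is a description, not a binding site. The windows below are those of the most abundant H4 gene, of 2 H4 genes with small p-values in eWAT, and of 1 H1 and 1 H2B gene for comparison, with GGTCCG in capitals for H4, AAACACA for H1 and ATTTGCAT for H2B.
Hist1h4h, chr13:23530794-23531093, plus strand: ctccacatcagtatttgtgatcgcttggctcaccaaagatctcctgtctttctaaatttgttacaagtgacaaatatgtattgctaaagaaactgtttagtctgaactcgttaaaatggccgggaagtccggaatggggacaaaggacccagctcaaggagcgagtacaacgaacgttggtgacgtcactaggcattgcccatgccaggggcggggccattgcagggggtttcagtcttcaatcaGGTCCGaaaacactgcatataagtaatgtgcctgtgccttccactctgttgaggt
Hist1h4i, chr13:22041313-22041612, minus strand: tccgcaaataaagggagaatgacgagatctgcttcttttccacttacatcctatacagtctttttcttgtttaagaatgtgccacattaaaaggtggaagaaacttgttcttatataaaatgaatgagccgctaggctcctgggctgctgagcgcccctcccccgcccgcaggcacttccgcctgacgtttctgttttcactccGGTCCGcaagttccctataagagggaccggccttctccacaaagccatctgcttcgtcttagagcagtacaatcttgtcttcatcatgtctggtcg
Hist1h4k, chr13:21750504-21750803, minus strand: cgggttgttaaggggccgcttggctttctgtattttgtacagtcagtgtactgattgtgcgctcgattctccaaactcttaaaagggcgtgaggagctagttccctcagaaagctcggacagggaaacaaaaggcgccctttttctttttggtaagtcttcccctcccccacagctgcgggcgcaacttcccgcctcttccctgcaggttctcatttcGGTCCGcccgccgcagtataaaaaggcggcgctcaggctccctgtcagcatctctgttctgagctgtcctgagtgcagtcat
Hist1h1c, chr13:23738557-23738856, plus strand: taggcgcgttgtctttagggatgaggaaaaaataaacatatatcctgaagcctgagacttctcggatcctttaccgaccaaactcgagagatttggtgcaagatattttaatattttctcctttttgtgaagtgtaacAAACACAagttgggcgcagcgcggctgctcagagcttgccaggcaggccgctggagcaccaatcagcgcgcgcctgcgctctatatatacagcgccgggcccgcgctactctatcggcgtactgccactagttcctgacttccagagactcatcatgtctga
Hist1h2bg, chr13:23571150-23571449, plus strand: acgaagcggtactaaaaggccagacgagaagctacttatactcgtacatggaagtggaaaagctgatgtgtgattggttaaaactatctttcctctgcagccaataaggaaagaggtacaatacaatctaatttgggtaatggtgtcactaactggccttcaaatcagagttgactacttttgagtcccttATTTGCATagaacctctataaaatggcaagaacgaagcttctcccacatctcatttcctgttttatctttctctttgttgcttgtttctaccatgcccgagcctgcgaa

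The targeted gene, Elavl1, had no lower level in the mutant than in littermates by label: its FPKM was 13.9, 15.4 and 13.3 in HuR-FKO eWAT against 13.6, 13.8 and 12.2 in Ctrl eWAT, 16.5, 15.3 and 13.9 in HuR-FKO iWAT against 13.2, 15.8 and 12.4 in Ctrl iWAT, and 8.98 and 8.17 in HuR-FKO BAT against 8.34 and 7.36 in Ctrl BAT, so HuR-FKO here means the libraries labelled so. The paper reports that HuR was lacking in each of these depots by real-time PCR and western blot. The table holds 1 value per gene, which does not resolve the deleted part, and cells other than adipocytes keep the allele. Whether either accounts for these values was not tested. The BAT libraries stand apart from the white fat libraries: all FPKM of a library summed to 719408 to 796184 in BAT and to 3460324 to 12928410 in white fat, and mitochondrial transfer RNAs were listed at 0 in every BAT library. The depth was estimated from the steps between low values at 9.3 to 18.2 M fragments, a rough figure because only 58.4% to 82.4% of those values came out whole. At that depth, with gene length reduced for an assumed fragment of 200 bases, 1 FPKM over 400 bases stands for 1.87 to 3.66 fragments. Low members therefore rest on few reads.

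Of the 70 genes, 51 had a group mean over 1 FPKM somewhere among the 6 groups (2 H1, 18 H2A, 17 H2B, 3 H3 and 11 H4), and the others are not described singly. By the highest of its 6 group means, Hist1h2ai was just inside this line with 1.20 FPKM (HuR-FKO eWAT) and Hist1h3i just outside it with 0.945 FPKM (HuR-FKO iWAT). The most abundant member was Hist1h2bc, an H2B gene (chr13:23684199-23692488), with 116 to 138 FPKM in HuR-FKO eWAT against 108 to 130 in Ctrl eWAT, 72.1 to 96.6 in HuR-FKO iWAT against 71.3 to 94.6 in Ctrl iWAT, and 80.1 and 89.2 in HuR-FKO BAT against 106 and 83.2 in Ctrl BAT. The genotypes overlapped in each depot, and Hist1h2bc gave 40.3% to 70.8% of the H2B sum of a library. Hist1h1c, which encodes a somatic H1 and lies at chr13:23738807-23740366, gave 84.1% to 97.2% of the H1 sum. Hist1h4h (chr13:23531044-23531519) was the leading H4 gene and gave 35.0% to 75.5% of the H4 sum. The leading H2A rows were the pseudogene Hist1h2al, which lies away from the cluster at chr13:51202688-51203065, and the near-identical pair Hist2h2aa1 and Hist2h2aa2, and the leading H3 gene was Hist2h3c2, with 3.42 to 5.09 FPKM in HuR-FKO eWAT against 4.37 to 7.61 in Ctrl eWAT. The H2B genes Hist1h2bf, Hist1h2bg, Hist1h2bh, Hist1h2bj, Hist1h2bk, Hist1h2bl, Hist1h2bn and Hist1h2ba, the last known as a testis form, and the H2A gene Hist3h2a made up the rest of the 15 most abundant members. The groups of these 9 overlapped in iWAT in every case. In eWAT they were apart for Hist1h2bh and Hist1h2bn and in BAT for Hist1h2bf (3.71 and 4.07 FPKM in HuR-FKO against 2.97 and 3.24 in Ctrl) and Hist1h2bj (2.06 and 1.89 against 1.65 and 1.53), each time with HuR-FKO higher.

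**Figure D1:**
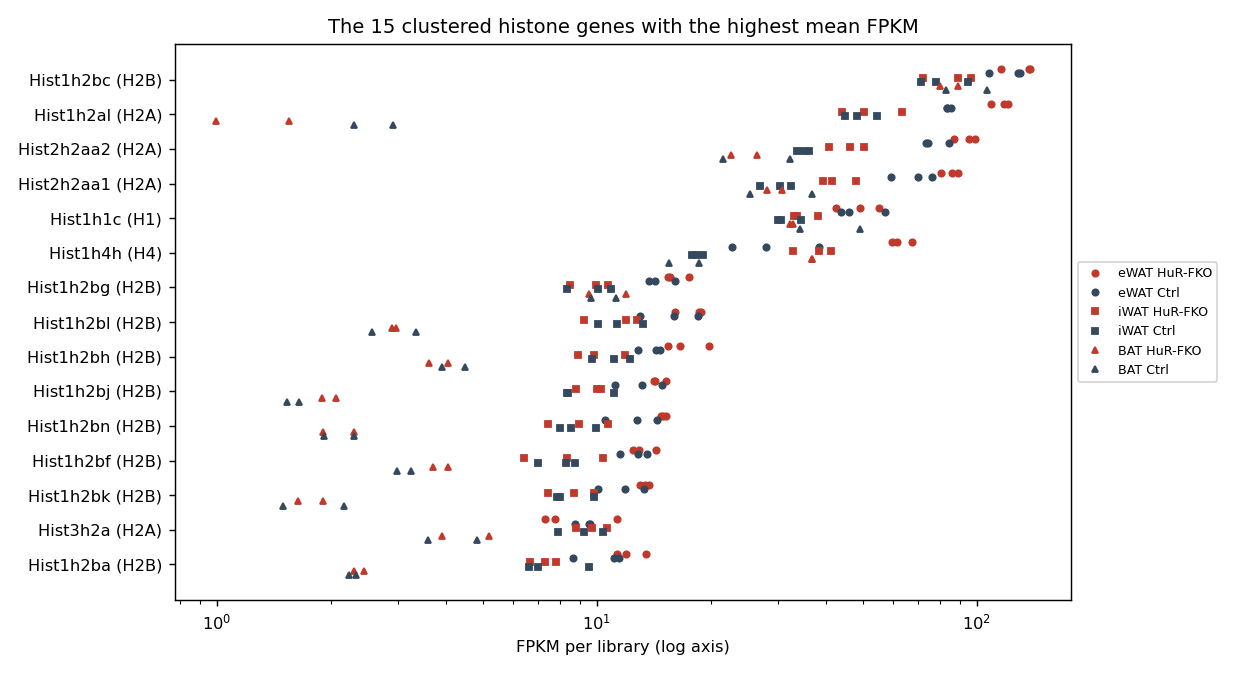
FPKM of the 15 clustered histone genes with the highest mean, 1 point per library on a log axis, with HuR-FKO in red, Ctrl in dark grey-blue, and circles, squares and triangles for eWAT, iWAT and BAT. Of these 15 genes, Hist1h4h alone has red and dark points apart in all 3 depots (59.7 to 67.3 against 22.7 to 38.4 FPKM in eWAT).

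Copies of one class share sequence, and how the reads of near-identical copies were divided decides the values of single genes. Sharing was counted in GENCODE vM21 transcripts, some of which are longer than the deposited loci. A window of 100 bases counted as shared where it also occurs exactly in the transcript of another gene. The median share was 64.5% of a transcript in H2A, 49.8% in H3, 32.8% in H2B, 19% in H4 and 0.40% in H1. Among the 11 H4 genes with a group mean above 1 FPKM, the share was 0 in Hist1h4d, 14.0% in Hist1h4c, 15.1% in Hist1h4i, 18.2% in Hist1h4f, 19% in Hist1h4j, 31.8% in Hist1h4a, 38.5% in Hist1h4h, 44.0% in Hist1h4b, 64.3% in Hist1h4k, 80.7% in Hist1h4n and 88.1% in Hist1h4m, and each gene that shared a window with one of them was another H4 gene. Reads divided among these copies therefore stay within the H4 sum by this count, and class sums are given first. Hist2h2aa1 shared all of its windows, and the table and GENCODE place Hist2h2aa1 and Hist2h2aa2 at each other's loci, so the pair is uncertain as single genes. The loci of 12 members, Hist1h4b among them, overlap that of another gene; the libraries were strand-specific, but the strand setting of the counting is not given in the sources used here.

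The comparison of HuR-FKO with Ctrl asks how the fat depots of the mutant differ from those of littermates. Of the 5 classes, H4 had the largest ratio of HuR-FKO to Ctrl in each depot; in BAT this order rested on the leading members, since without the top gene of each class the BAT ratio was 1.33 for H4 (without Hist1h4h) and 2.34 for the low H3 sum (without Hist2h3c2). In eWAT the summed FPKM of the 13 H4 genes was 144, 151 and 129 in HuR-FKO against 48.7, 57.5 and 82.9 in Ctrl, a mean of 141 ± 10.97 against 63.0 ± 17.8 (SD, n = 3 each) and a ratio of 2.24. In iWAT it was 84.8, 86.9 and 97.2 in HuR-FKO against 43.8, 50.8 and 48.2 in Ctrl, with means of 89.6 ± 6.62 and 47.6 ± 3.50 (SD, n = 3 each) and a ratio of 1.88. In BAT it was 48.7 and 49.8 in HuR-FKO against 25.3 and 27.5 in Ctrl, a ratio of 1.86 (n = 2 each). Each HuR-FKO library thus lay above each Ctrl library of its depot, with Ctrl replicate 3 the nearest in eWAT. The sum without Hist1h4h was also apart in each depot, at 69.5 to 88.8 in HuR-FKO against 26.0 to 44.5 in Ctrl eWAT, 48.4 to 56.0 against 25.6 to 33.0 in iWAT, and 11.9 to 12.9 against 8.94 to 9.78 in BAT.

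The ratios of the other classes were smaller. The H2A sum was 358 ± 13.9 in HuR-FKO against 283 ± 17.2 in Ctrl eWAT (ratio 1.27) and 182 ± 20.2 against 151 ± 6.88 in iWAT (ratio 1.21; SD, n = 3 each), without overlap in either, whereas in BAT its ratio was 0.943 with overlap. The H2B sum had ratios of 1.12 in eWAT, 1.03 in iWAT and 0.956 in BAT, and its libraries overlapped in each depot. Linker histone H1 had ratios of 1.03 in eWAT and 1.12 in iWAT with overlap, and of 0.793 in BAT, where the sums of 34.0 and 34.4 in HuR-FKO lay below those of 35.6 and 50.6 in Ctrl. The H3 sum was low throughout, with ratios of 1.09 in eWAT and 1.04 in iWAT, and in BAT 4.17 and 4.32 in HuR-FKO against 2.19 and 3.50 in Ctrl. No p-value is given for a class sum, since the members were chosen with values known.

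**Figure D2:**
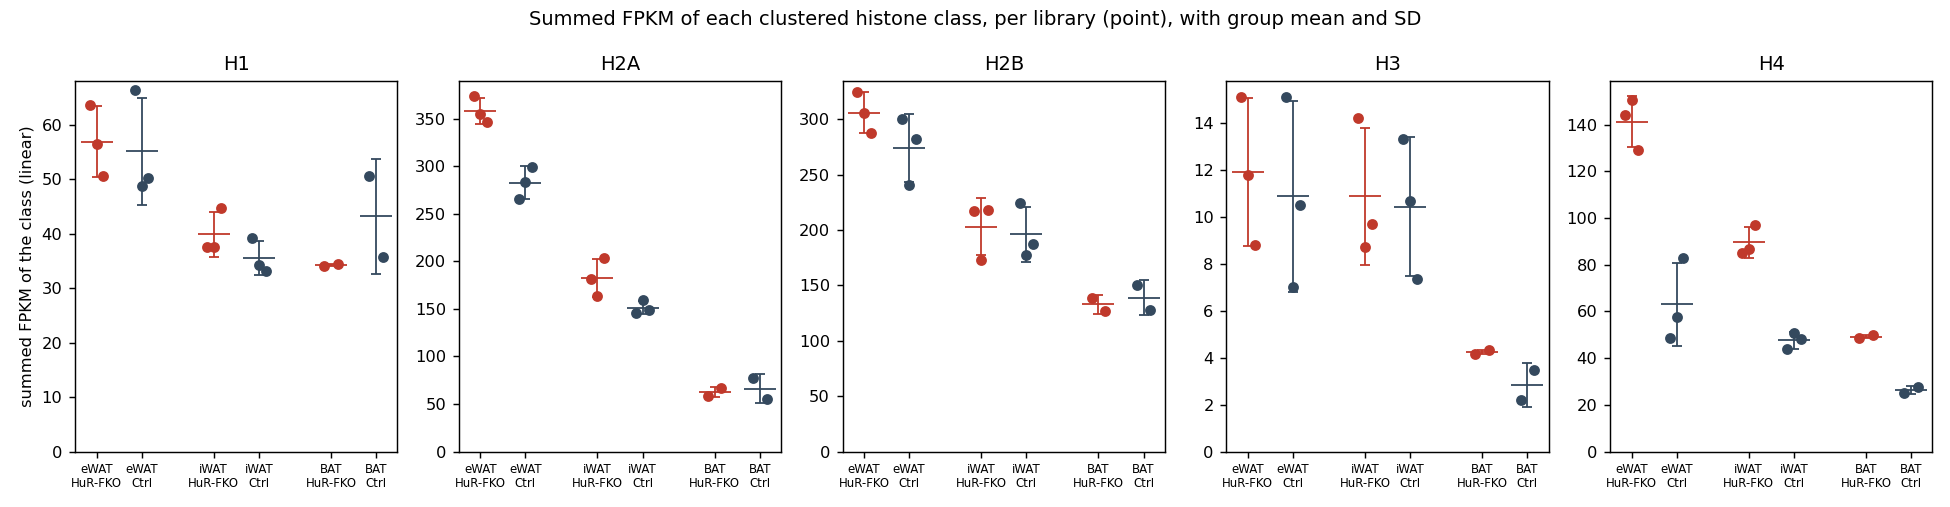
Summed FPKM of each class (linear axes from 0), 1 point per library, with the group mean and SD as bar and error bar, HuR-FKO in red left of Ctrl in dark grey-blue for each depot. Only in the H4 panel are the HuR-FKO points above all Ctrl points of the same depot in all 3 depots (129 to 151 against 48.7 to 82.9 in eWAT).

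Expressed within each library, which removes differences in scale between libraries, H4 made up 15.7% to 18.5% of the summed FPKM of the 70 genes in the 8 HuR-FKO libraries (median 17.0%) and 7.004% to 11.8% in the 8 Ctrl libraries (median 10.2%). The H4 sum divided by the H2B sum was 0.351 to 0.502 in HuR-FKO and 0.162 to 0.294 in Ctrl, so that the 8 libraries of each genotype did not overlap even across depots. The H4 sum divided by the H2A sum was apart within each depot but overlapped across them, at 0.373 to 0.832 in HuR-FKO and 0.184 to 0.496 in Ctrl. The highest HuR-FKO values were those of BAT (0.749 and 0.832), where Hist1h2al gave 1.69% to 4.13% of the H2A sum, against 27.1% to 34.3% in white fat.

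**Figure D3:**
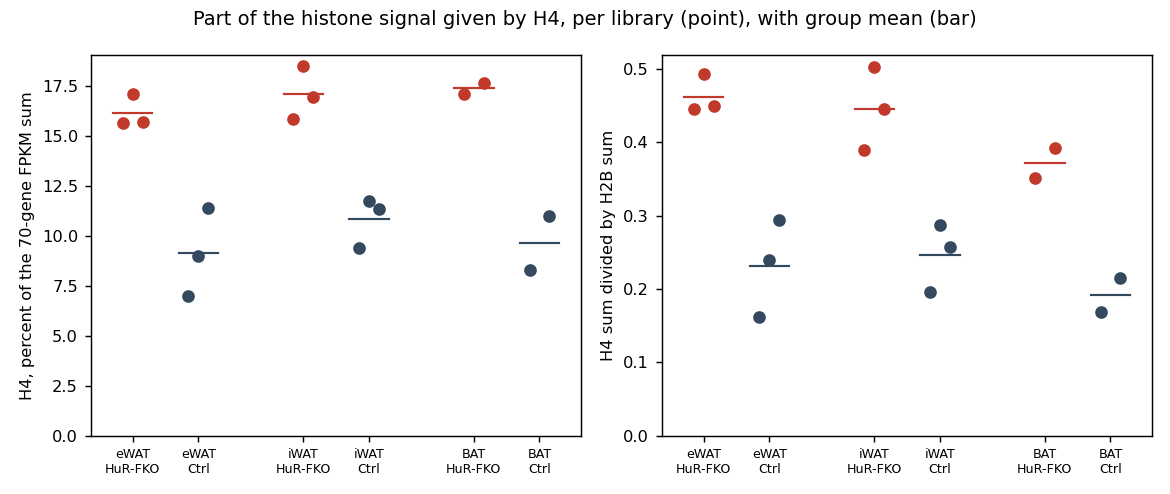
Left, H4 as a percent of the summed FPKM of the 70 genes; right, the H4 sum divided by the H2B sum (no unit); 1 point per library with the group mean as a bar, both axes from 0. All 8 HuR-FKO points lie at 15.7% or above and all 8 Ctrl points at 11.8% or below in the left panel.

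Of the single H4 genes, Hist1h4h had 67.3, 61.7 and 59.7 FPKM in HuR-FKO eWAT against 22.7, 27.9 and 38.4 in Ctrl eWAT. In iWAT it had 32.8, 38.5 and 41.2 FPKM in HuR-FKO against 18.2, 17.8 and 18.998 in Ctrl. In BAT it had 36.7 and 36.9 FPKM in HuR-FKO against 15.5 and 18.6 in Ctrl. The groups were apart in every depot, and the log2 difference on the log2(FPKM + 1) scale was similar in all of them: 1.09 (SE 0.17) for eWAT, 0.99 (SE 0.11) for iWAT and 1.07 (SE 0.14) for BAT. None of these passed the threshold of 0.05 in limma with Benjamini-Hochberg adjustment over all tested genes within 1 depot (adjusted p = 0.151, 0.0631 and 0.280).

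Hist1h4k, whose transcript shares most of its windows with other H4 genes, had 15.5, 17.2 and 14.8 FPKM in HuR-FKO eWAT against 5.15, 4.97 and 8.08 in Ctrl eWAT. In iWAT it had 10.5, 8.80 and 11.1 FPKM in HuR-FKO against 4.52, 5.82 and 4.67 in Ctrl. Both depots were apart, but in BAT its values of 1.63 and 2.56 in HuR-FKO overlapped those of 1.17 and 1.72 in Ctrl. Hist1h4d, the H4 gene with no shared window, had 5.53, 5.05 and 3.62 FPKM in HuR-FKO eWAT against 2.05, 1.18 and 3.75 in Ctrl eWAT. Here the groups overlapped through Ctrl replicate 3. In iWAT it had 2.33, 2.14 and 4.15 FPKM in HuR-FKO against 1.13, 1.56 and 2.13 in Ctrl, just apart. Hist1h4i had 9.73, 10.03 and 9.14 FPKM in HuR-FKO eWAT against 3.97, 3.43 and 5.29 in Ctrl eWAT, and Hist1h4c had 9.39, 10.7 and 7.99 FPKM against 2.75, 2.81 and 4.49. Both genes were apart in all 3 depots.

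In the limma tests within 1 depot, no member passed the adjusted threshold in eWAT, iWAT or BAT, where 0.0403%, 0.0391% and 0% of all tested genes did. At an unadjusted p under 0.05 the H4 genes were higher in 11 of 11 tested in eWAT, 11 of 11 in iWAT and 3 of 5 in BAT, against 3.85%, 3.72% and 2.91% of all tested genes. Groups without overlap and with HuR-FKO higher were seen for 10 of 11, 11 of 11 and 4 of 5 H4 genes, against 6.67%, 5.67% and 14.8% of all tested genes. The median log2 difference of the H4 genes was 1.02 in eWAT, 0.67 in iWAT and 0.49 in BAT, beside medians over all tested genes of -0.01, -0.04 and -0.05. Over all classes 21 of 48, 14 of 47 and 4 of 23 members were higher at that unadjusted level and none was lower, where 3.8%, 5.5% and 6.77% of all tested genes were lower. With the spread estimated from all 16 libraries in one fit, limma called 7 H4 genes in eWAT, 2 in iWAT (Hist1h4h and Hist1h4k) and Hist1h4h in BAT. In BAT, Hist1h4b, Hist1h4c and the H1 gene Hist1h1e passed the filter only through their HuR-FKO mean, which favors a higher value there, and 6 of the 11 H4 genes were too low to be tested. These went both ways. Hist1h4d (0.509 against 0.724 FPKM in Ctrl), Hist1h4m (0.293 against 0.455) and Hist1h4n (0.263 against 0.825) had lower means in HuR-FKO BAT. Hist1h4a (0.848 against 0.813), Hist1h4f (0.220 against 0.154) and Hist1h4j (0.844 against 0.511) had higher ones.

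**Figure D4:**
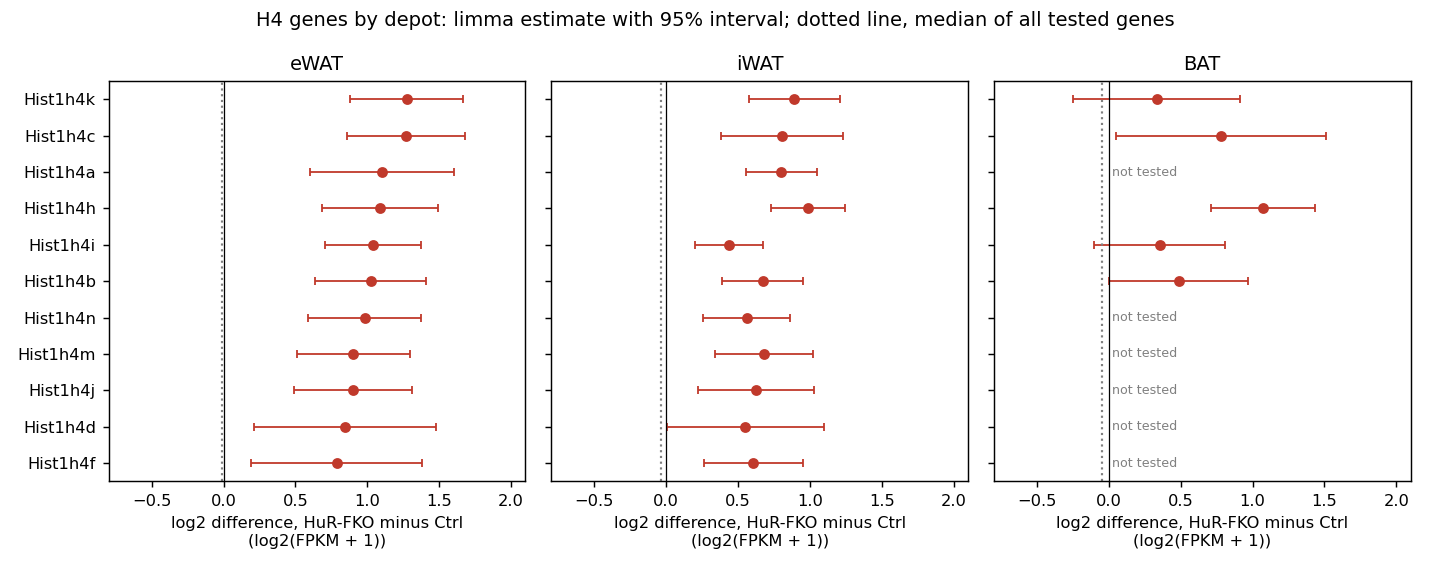
Log2 difference, HuR-FKO minus Ctrl, on the log2(FPKM + 1) scale for the 11 tested H4 genes in eWAT, iWAT and BAT, with the limma 95% interval as a horizontal bar; the dotted line is the median of all tested genes. Every estimate shown is above 0, from 0.79 to 1.27 in eWAT and from 0.44 to 0.99 in iWAT, and 6 genes were not tested in BAT. Of those, Hist1h4d, Hist1h4m and Hist1h4n had lower means in HuR-FKO BAT, and Hist1h4a, Hist1h4f and Hist1h4j higher ones.

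Among the remaining classes the smallest p-values in eWAT belonged to H2A genes. Hist1h2an had 4.50, 4.49 and 3.66 FPKM in HuR-FKO against 2.08, 2.83 and 2.76 in Ctrl (log2 difference 0.55, adjusted p = 0.408 in limma), without overlap. At an unadjusted p under 0.05, 3.85% of all tested genes were higher in eWAT and 3.72% in iWAT. In eWAT 8 of 16 H2A, 1 of 16 H2B, 1 of 3 H3 and 0 of 2 H1 genes were higher. In iWAT these counts were 2 of 14, 1 of 17, 0 of 3 and 0 of 2. The H2B counts were near the shares of all genes. The H3 gene, Hist1h3e, passed the filter only through its HuR-FKO mean, and H2A genes that share sequence are not independent. The class median of H2A was 0.28 in eWAT, 0.13 in iWAT and -0.05 in BAT, and that of H2B 0.18, 0.01 and 0.02. In iWAT the non-H4 genes with the smallest p-values were Hist2h2aa1, with 41.6, 39.4 and 48.1 FPKM in HuR-FKO against 26.8, 30.3 and 32.5 in Ctrl, and Hist2h2be, an H2B gene known from mouse olfactory neurons, with 7.92, 8.35 and 6.73 FPKM against 5.35, 5.35 and 5.78. Hist2h2be was also apart in BAT, at 9.80 and 10.3 FPKM in HuR-FKO against 7.69 and 7.71 in Ctrl, and was level in eWAT (log2 difference 0.0047). Both were apart in iWAT, and their adjusted p-values there were 0.290 and 0.355 in limma.

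Toward lower values in HuR-FKO, the 3 genes with the smallest p-values were Hist2h3c2 (-0.32), Hist2h3b (-0.19) and Hist3h2a (-0.09) in eWAT, Hist2h3c2 (-0.30), Hist1h2ak (-0.17) and Hist2h3b (-0.27) in iWAT, and Hist2h3c2 (-0.41), Hist1h1c (-0.33) and Hist1h2bc (-0.15) in BAT, all on the log2(FPKM + 1) scale. None passed the limma threshold, and Hist2h3c2 passed the filter in BAT only through its Ctrl mean (0.773 FPKM in HuR-FKO against 1.35 in Ctrl), which favors a lower value there. Groups without overlap and with HuR-FKO lower were seen for 0 members in eWAT and iWAT, against 6.5% and 8.81% of all tested genes, and for 2 of 23 in BAT (Hist1h1c, and Hist2h3c2 with that filter), against 26.6%. The H3 class therefore held genes on both sides: Hist1h3e, at 2.01, 1.34 and 1.52 FPKM in HuR-FKO eWAT against 0.898, 0.105 and 1.04 in Ctrl eWAT, passed the filter in white fat only through its HuR-FKO mean.

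**Figure D5:**
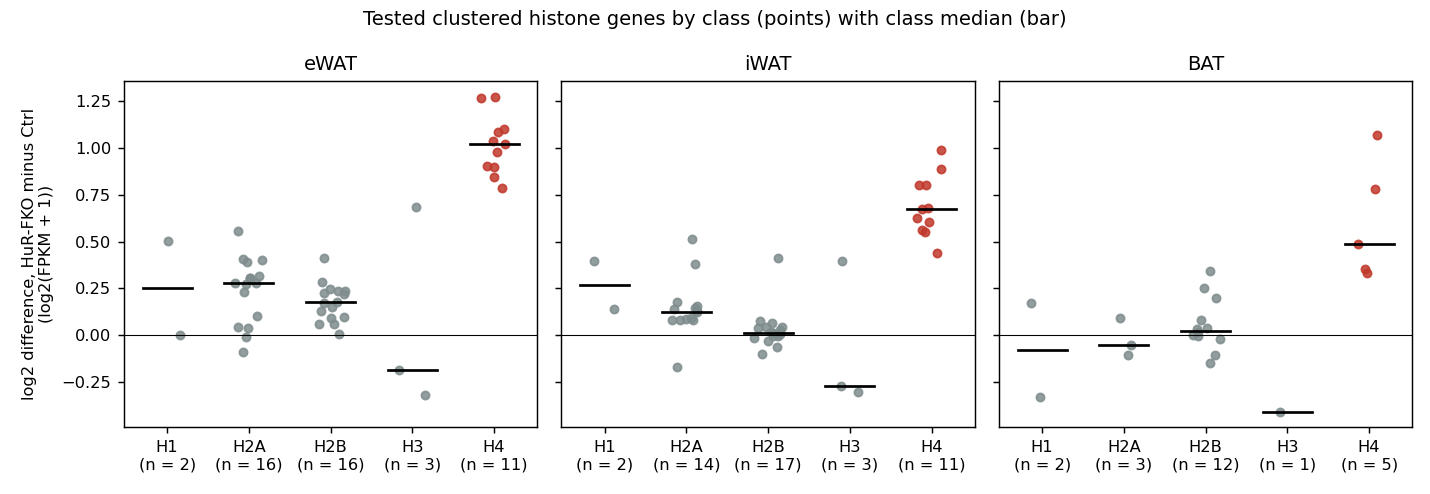
Log2 difference, HuR-FKO minus Ctrl, on the log2(FPKM + 1) scale for each tested member (point) by class, with the class median as a bar and the number of genes tested under each class, in eWAT, iWAT and BAT. The H4 points (red) lie above the medians of all other classes, at medians of 1.02, 0.67 and 0.49.

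One fit over all 16 libraries with the depot as a term estimated a genotype difference shared by the depots. It called 8 of 49 tested members higher in HuR-FKO and 0 lower, against 1.07% of all tested genes higher and 1.26% lower. Of these 8, 7 were H4 genes: Hist1h4h (1.05, SE 0.086, adjusted p = 1.03e-05 in limma), Hist1h4c (0.97), Hist1h4k (0.90), Hist1h4b (0.76), Hist1h4a (0.72), Hist1h4j (0.65) and Hist1h4i (0.64). The eighth was Hist1h3e (0.55, adjusted p = 0.0407), which had passed the filter through its HuR-FKO mean and was no longer called without any 1 of the 3 HuR-FKO eWAT libraries. Hist1h4h had the second smallest p-value of 13317 genes. The 4 other tested H4 genes had log2 differences of 0.55 (Hist1h4m), 0.54 (Hist1h4f), 0.47 (Hist1h4d) and 0.46 (Hist1h4n) with adjusted p-values of 0.0576, 0.0593, 0.186 and 0.202. The H4 median was 0.65, against 0.16 for H2A, 0.07 for H2B and -0.03 for all tested genes. At an unadjusted p under 0.05, 21 of 49 members were higher, against 6.76% of all tested genes, and 1 was lower (Hist2h3c2, -0.34, adjusted p = 0.218), against 10.7%. The labels do not say whether libraries of different depots came from the same mice, and this fit treats them as independent. With eWAT and iWAT libraries of the same number averaged, as 3 against 3, 2 members were called, Hist1h4h (adjusted p = 0.0327) and Hist1h4k (adjusted p = 0.0179), a fit chosen after the data were seen. Without the BAT libraries 12 members were called, among them 10 H4 genes with Hist2h2aa1 and Hist2h2aa2 but not Hist1h3e.

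The difference between the eWAT and the iWAT effect was tested as an interaction. No member passed the limma threshold, as against 0.0076% of all tested genes, and at an unadjusted p under 0.05 there were 2 members with the larger difference in eWAT (Hist1h4i and Hist1h2ak), against 1.87% of all tested genes, and 1 with the larger difference in iWAT (Hist2h2be), against 1.39%. Hist1h4i had 0.60 (95% interval 0.22 to 0.98, adjusted p = 1.0 in limma). The estimate was positive for all 11 H4 genes, with a median of 0.30 beside 0.03 over all tested genes, but 10 of these 11 share sequence with each other and they are not independent.

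H4 genes lie among genes of the other classes, so each was set beside its nearest tested neighbor of another class, 802 to 12584 bases away. The H4 gene had the higher log2 difference in 11 of 11 pairs in eWAT and in 11 of 11 in iWAT. In eWAT any tested partner would have given this count. The lowest H4 value there (0.79) lay above the highest of the other classes (0.69, in H3). In iWAT the lowest H4 value was 0.44 and the highest of another class 0.51, in H2A, so few partners could have given another count. These counts therefore say nothing on position in eWAT and little in iWAT. The 10 neighbors (1 stood beside 2 H4 genes) had medians of 0.29 in eWAT and 0.08 in iWAT, where the H4 genes had 1.02 and 0.67. By GENCODE vM21 length, the 7 tested H4 genes of at most 600 bases had medians of 1.02 in eWAT and 0.68 in iWAT. The 4 longer ones, of 727 to 1138 bases, had 0.97 and 0.59. The deposited loci of Hist1h4c, Hist1h4d and Hist1h4i were shorter than those of GENCODE, so this split need not follow the lengths behind the FPKM. GENCODE lengths were also used for the genes outside the family. Protein-coding genes outside the family of at most 600 bases had medians of -0.04 in eWAT (n = 138), 0.02 in iWAT (n = 138) and -0.14 in BAT (n = 81), but 9.42%, 13.8% and 11.1% of them were higher at an unadjusted p under 0.05, where 3.85%, 3.72% and 2.91% of all tested genes were. The part of transcript length in the H4 difference was not tested.

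Genes that act with the histone genes were set beside them as lists. Of the 50 S phase and proliferation genes listed, 35 were tested in eWAT, 45 in iWAT and 26 in BAT, and limma called none in any depot. At an unadjusted p under 0.05, 2, 2 and 3 were higher, against 3.85%, 3.72% and 2.91% of all tested genes. Lower at that level were 1, 0 and 0, against 3.8%, 5.5% and 6.77%. Their summed FPKM was 157 to 179 in HuR-FKO against 164 to 177 in Ctrl eWAT and 216 to 360 against 224 to 287 in iWAT, so the groups overlapped. By gene, 38 of 45 had a log2 difference above 0 in iWAT, with a median of 0.18 beside -0.04 over all tested genes, against 19 of 35 in eWAT and 15 of 26 in BAT. Over 3 depots 36 of 45 were above 0, with a median of 0.08 beside -0.03. In the fit over 3 depots 1 of 45 was called higher, against 1.07% of all tested genes. It was Rfc4, a subunit of the clamp loader of DNA replication (0.63, adjusted p = 0.0123 in limma). At an unadjusted p under 0.05 in that fit, 5 of 45 were higher and 1 lower, against 6.76% and 10.7% of all tested genes. Mki67, a proliferation marker, had 0.09 and Top2a, the topoisomerase of dividing cells, 0.54 (adjusted p = 0.730 and 0.0904 in limma). Of the genes for histone gene transcription and mRNA 3′ processing, 28 of 31 were tested in eWAT, 29 in iWAT and 24 in BAT; limma called none, and at an unadjusted p under 0.05 only 1 gene, lower in BAT, passed. The log2 difference of Slbp was 0.08, 0.29 and 0.20 in eWAT, iWAT and BAT, and that of Npat, the activator of the histone clusters, 0.07 and 0.02 in eWAT and iWAT. Hinfp, named after its values were seen because it is known to bind H4 promoters, had 0.27, -0.01 and -0.12. None of the 11 replication-independent histone genes was called in limma within a depot or over 3 depots. At an unadjusted p under 0.05, 1 was higher in iWAT and 2 over 3 depots, against 3.72% and 6.76% of all tested genes. H2afx had log2 differences of 0.24 and 0.15 in eWAT and iWAT, H2afz -0.03 and -0.14, and H3f3a 0.08 and -0.01. In the same order, H3f3b had 0.08 and 0.23, and H1f0 -0.15 and 0.17.

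The lists that follow, of cell markers and of RNAs without a poly(A) tail, are those whose sums were apart between the genotypes in at least 1 depot. Picked by that difference, they are a description only. Of all tested genes, 6.67%, 5.67% and 14.8% were apart and higher in eWAT, iWAT and BAT, and 6.5%, 8.81% and 26.6% apart and lower. The sums of the B cell, macrophage, Schwann cell and epithelial marker lists overlapped in each depot. All 4 tested macrophage genes had log2 differences below 0 in eWAT and iWAT and above 0 in BAT. Red cell genes, 3 of 5 of which are in the table, summed to 2619 to 3279 FPKM in HuR-FKO against 1355 to 2007 in Ctrl eWAT, 1101 to 2171 against 778 to 978 in iWAT, and 1164 to 1411 against 878 to 970 in BAT, and all 3 were called higher in the fit over 3 depots. Skeletal muscle genes summed to 9.66 to 381 in HuR-FKO against 225 to 1636 in Ctrl iWAT and to 783 to 794 against 1345 to 2398 in BAT. Endothelial genes summed to 230 to 277 in HuR-FKO against 194 to 232 in Ctrl eWAT, 163 to 189 against 143 to 155 in iWAT and 127 to 141 against 106 to 109 in BAT, and Cdh5 and Tie1 were called higher over 3 depots (adjusted p = 0.0284 and 0.0238 in limma). Neutrophil genes summed to 18.4 to 48.1 in HuR-FKO against 53.7 to 127 in Ctrl iWAT, where all 3 tested were lower at an unadjusted p under 0.05 and Retnlg was called lower (-1.49, adjusted p = 0.0447 in limma). T cell genes summed to 7.45 to 8.75 in HuR-FKO against 4.23 to 6.64 in Ctrl eWAT and to 1.45 to 3.39 against 0.604 to 1.22 in BAT. The white adipocyte genes Lep and Retn summed to 1621 to 1793 in HuR-FKO against 2247 to 2548 in Ctrl eWAT, with both lower at an unadjusted p under 0.05, to 765 to 1002 against 984 to 1362 in iWAT, and to 69.6 to 88.7 against 102 to 194 in BAT. Epididymis and testis genes summed to 0.696 to 11.1 in HuR-FKO against 0.059 to 0.268 in Ctrl eWAT. Brown adipocyte genes summed to 11.1 to 20.9 in HuR-FKO against 7.23 to 7.54 in Ctrl eWAT and to 311 to 521 against 134 to 191 in iWAT. Since most histone messages lack a poly(A) tail, a list of other RNAs without one was summed too (16 of 18 in the table): 13.9 to 107 in HuR-FKO against 27.7 to 355 in Ctrl eWAT, 53.3 to 211 against 118 to 225 in iWAT, and 91.9 to 140 against 49.5 to 58.8 in BAT. Single RNAs carried these sums. In BAT, Vaultrc5 was at 59.7 in HuR-FKO replicate 1 and Snord118 at 61.6 in HuR-FKO replicate 2, both listed at 0 in the other BAT libraries, and without these 2, left out after their values were seen, the BAT sums overlapped, at 80.3 and 30.3 in HuR-FKO against 58.8 and 49.5 in Ctrl. In eWAT the highest Ctrl sum held 310 of Rny3, while Rn7sk, a small nuclear RNA, was at 6.01, 3.57 and 3.99 in HuR-FKO against 9.96, 8.08 and 8.63 in Ctrl, apart and lower in HuR-FKO. The part of any of these in the H4 difference was not tested. Adipocyte markers were present in every library, at sums of 13686 to 33660 (in BAT 13686 to 14026 in HuR-FKO against 14227 to 14636 in Ctrl), and brown adipocyte markers reached 2256 to 3052 in BAT.

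Between the depots of Ctrl mice the order of the classes was another one. The eWAT sum was above the iWAT sum for H2A, at 283 ± 17.2 against 151 ± 6.88 (ratio 1.87), for H1, at 55.1 ± 9.75 against 35.5 ± 3.19 (ratio 1.55), and for H2B, at 274 ± 30.6 against 196 ± 24.9 (ratio 1.40; SD, n = 3 each), each without overlap. The H4 sums overlapped (ratio 1.32), as did those of H3 (1.04). H4, the class with the largest genotype ratio, was thus not among those whose sums separated the white depots. Limma without pairing of libraries called 13 of 48 members higher and 2 lower in eWAT, against 14% and 17% of all tested genes. The share called higher was thus above that of all genes, and the median over the members was 0.37 beside -0.01.

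The strongest of these were Hist2h2aa1 and Hist2h2aa2, which share nearly all their sequence. Hist2h2aa2 had 73.5, 74.3 and 84.6 FPKM in eWAT against 35.1, 33.6 and 36.1 in iWAT (log2 difference 1.12, SE 0.094, adjusted p = 0.000149 in limma), with no overlap. Hist2h2aa1 had 59.4, 70.1 and 76.1 FPKM against 26.8, 30.3 and 32.5 (1.17, adjusted p = 0.000415). Hist2h2ac, an H2A gene of the same cluster with few shared windows, had 8.65, 9.97 and 9.46 FPKM in eWAT against 4.19, 5.71 and 4.84 in iWAT (0.81). The other calls were Hist1h4h (0.64), Hist1h1c (0.61), the H2B genes Hist1h2bf (0.60), Hist1h2bc (0.58), Hist1h2bg (0.55), Hist1h2bn (0.46) and Hist1h2bj (0.45), and the H2A genes Hist1h2af (0.46), Hist1h2ae (0.45) and Hist1h2ao (0.44). Lower in eWAT were Hist3h2ba, at 0.837, 0.697 and 0.745 FPKM in eWAT against 2.50, 2.61 and 1.18 in iWAT, and Hist2h2be, at 4.28, 3.86 and 4.15 FPKM against 5.35, 5.35 and 5.78. With the replicate number as a block, 18 were called higher and 1 lower, and Hist2h2be was no longer called. Without Ctrl eWAT replicate 3 there were 7 calls higher, and without Ctrl iWAT replicate 3 there were 8, with Hist2h2aa1, Hist2h2aa2 and Hist2h2ac in both. Of the S phase genes, limma called 22 of 44 lower in eWAT and none higher, against 17% and 14% of all tested genes. Among those lower were Top2a (-1.36) and Mki67 (-1.05). All 6 T cell markers were lower in eWAT, at a sum of 4.23 to 6.64 FPKM in eWAT against 95.5 to 178 in iWAT. Their part in the depot differences was not tested.

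BAT had lower deposited values of most members than either white depot. Limma called 1 of 46 members higher and 39 lower in Ctrl BAT against Ctrl iWAT, where 8.44% and 64% of all tested genes were called, and 1 of 47 higher and 43 lower against Ctrl eWAT, where 9.61% and 66% were. The median over the members was -1.17 and -1.43, beside -0.71 and -0.69 over all tested genes, so most of the table was lower in BAT as well. Protein-coding genes outside the family of at most 600 bases had medians of -1.28 against iWAT (n = 128) and -1.19 against eWAT (n = 130). Limma called 74 and 72 of them lower and 22 and 20 higher. A lower value in BAT was thus shared by other short genes. With scaling by the median ratio, which divides by factors of 0.619 to 0.668 in BAT and 1.08 to 1.20 in white fat, the H4 sum of Ctrl BAT was 0.992 times that of Ctrl iWAT, where the deposited values give 0.555. The H2A sum was 0.787 times that of iWAT with this scaling and 0.438 as deposited, while the H2B sum turned round, at 1.27 with it and 0.708 as deposited. Depot and the preparation of the libraries cannot be told apart here.

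Shares within a library do not depend on that scale. Hist1h2bc gave 63.1% to 70.8% of the H2B sum in the 4 BAT libraries and 40.3% to 45.9% in the 12 white fat libraries, and Hist1h4h gave 61.4% to 75.5% of the H4 sum in BAT and 35.0% to 48.6% in white fat. The differences between depots that follow are on the deposited scale. Hist1h2bm, an H2B gene, had 0.297 and 0.686 FPKM in Ctrl BAT against 9.77, 7.31 and 7.60 in Ctrl iWAT and 12.7, 9.69 and 10.5 in Ctrl eWAT (-2.63 and -3.01). Hist1h2bj had 1.65 and 1.53 FPKM in Ctrl BAT against 11.1, 8.34 and 8.40 in Ctrl iWAT and 14.8, 11.2 and 13.1 in Ctrl eWAT (-1.98 and -2.43). Both were far below the white depots. Hist2h2ac was listed at 0 in both Ctrl BAT libraries and at 0.403 and 0.304 FPKM in HuR-FKO BAT, and the pseudogene Hist1h2al had 0.991 and 1.55 FPKM in HuR-FKO BAT and 2.91 and 2.29 in Ctrl BAT against 44.3 to 121 in the white depots. Against iWAT, 5 of 46 members had a difference above 0 and against eWAT 1 of 47. Hist2h2be, the only member called higher in either, shares no window with another gene and had 7.69 and 7.71 FPKM in Ctrl BAT against 5.35, 5.35 and 5.78 in Ctrl iWAT and 4.28, 3.86 and 4.15 in Ctrl eWAT (0.42 and 0.77, adjusted p = 0.0320 and 0.00148 in limma). The call against iWAT was lost with the replicate block (adjusted p = 0.0723) and without any 1 of the 5 libraries (0.0574 to 0.0862), while that against eWAT held in each of these fits. The other 4 above 0 against iWAT were Hist1h1c (0.37), Hist1h2bc (0.22), Hist1h2bg (0.09) and Hist2h2aa1 (0.03), none of them called. With median-ratio scaling 6 members were called higher against iWAT, these 5 and Hist1h4h, and 2 against eWAT.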

How the data were processed

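RNA of 16 fat libraries, each pooled from 3 mice, was sequenced by the authors as strand-specific paired-end reads; poly(A) selection or ribosomal RNA removal is not given in the sources used here. Per the labels and the study's methods, reads were aligned to mm10 with TopHat2 2.0.11, and Cufflinks 2.1.1 made the deposited FPKM table (fragments per kilobase of transcript, scaled to sequencing depth). All 16 columns were used as deposited; columns of fold changes or p-values were not used.

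The main test was limma 3.58.1 (R 4.3.3; lmFit and eBayes with trend, two-sided) on log2(FPKM + 1), for protein-coding genes whose mean exceeded 1 FPKM in either compared group, with Benjamini-Hochberg adjustment over all tested genes and a threshold of 0.05. Fold changes on this scale understate those of low genes. Groups came from GEO's labels; nothing says the pools were independent matings or days, so p-values measure the spread between these pools. For 3 libraries against 3, an exact permutation test of 1 value cannot go below 0.10. The members and lists were chosen with earlier results of these data known. Named genes were the 15 most abundant, the top of each class, those past the threshold in any comparison, and the 3 with the smallest p in each direction. Alternatives were the pseudocount, the filter, median-ratio scaling, all genes, no trend, all libraries in one fit, a replicate block, and leaving out each library. Ctrl eWAT and iWAT libraries of the same number deviated together (correlations 0.272, 0.339 and 0.225). The main eWAT against iWAT test left this pairing out, and only the replicate block, an alternative, used it. Between HuR-FKO and Ctrl libraries of the same number, correlations had mixed signs in eWAT (0.258, -0.283 and -0.13). In iWAT they were positive (0.0685, 0.0613 and 0.411), while those of different numbers ranged from -0.422 to 0.369. These few values do not settle whether the genotypes were paired, and the main genotype tests used no pairing. On simulated data 95% (eWAT), 92.5% (iWAT), 78% (BAT) and 99.5% (3 depots) of 200 genes changed by 1 on the log2 scale were found. Of the calls, 5.47%, 9.31%, 4.88% and 5.69% were false, in that order. The simulated noise was Gaussian with each gene's variance pulled toward the median, and the changed genes were not low ones. These rates therefore need not hold for the real libraries. Python 3.11.15, pandas 2.3.3 and matplotlib 3.10.9 were used, with promoters from RefSeq (GRCm38.p6) and transcripts from GENCODE vM21.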

Additional observations from a re-analysis of the deposited data

Results flagged for a closer look

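The processed pseudogene Hist1h2al, an H2A row outside the protein-coding test, differed in opposite directions in 2 depots. Its FPKM in eWAT was 121, 109 and 118 in HuR-FKO against 83.2, 83.3 and 85.4 in Ctrl, a ratio of 1.38. In BAT it was 0.991 and 1.55 in HuR-FKO against 2.91 and 2.29 in Ctrl, a ratio of 0.489. In iWAT its groups overlapped, at 50.4, 44.3 and 63.4 in HuR-FKO against 48.4, 54.5 and 44.9 in Ctrl. The groups were thus apart with HuR-FKO higher in eWAT and lower in BAT. Among all tested genes, 6.67% were apart and higher in eWAT and 26.6% apart and lower in BAT. The BAT values also rest on few reads in 2 libraries against 2. The difference between the depots was not tested.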

How the results depend on the processing

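One choice was changed at a time, except that averaging eWAT and iWAT by number both merged libraries and left out BAT. Of the class sums, 76 of 102 values moved by less than the spread between libraries, as did 192 of 192 with 1 library left out; of the counts of members called, 113 of 130 and 106 of 120 with 1 library left out were within 1.5 times; of single members, 790 of 846 and 592 of 670 kept direction and side of the threshold. Over its alternatives Hist1h4h had a log2 difference of 0.92 to 1.29 in eWAT (14 alternatives, adjusted p = 0.00428 to 0.477 in limma), 0.92 to 1.08 in iWAT (14, 0.0136 to 0.508), 0.95 to 1.195 in BAT (12, 0.0167 to 0.925) and 0.99 to 1.11 over 3 depots (25, 1.06e-06 to 0.0327). The H4 sum ratio was 2.01 to 2.66 in eWAT, 1.77 to 1.96 in iWAT and 1.33 to 1.96 in BAT, where 1.33 is the sum without Hist1h4h. The cause of each change was not tested where it is not given.

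For HuR-FKO against Ctrl, one fit of all 16 libraries called 7 members higher in eWAT, 2 in iWAT and 1 in BAT, where the main fits called 0. The replicate block, which for the genotypes rests on a shared number only, called 1 higher in BAT (Hist1h4h), 1 lower over 3 depots (Hist2h3c2), and over all genes 0 in eWAT and 0 in iWAT in place of 5 each, 41 in BAT in place of 0, and 399 over 3 depots in place of 311. Averaging eWAT and iWAT by number, added after the data were seen, gave 2. Leaving out 1 library gave 0 to 1 higher in eWAT (Hist1h4k without Ctrl replicate 3), 0 to 1 in BAT (Hist1h4h without Ctrl replicate 2) and 7 to 11 over 3 depots. The eWAT minus iWAT effect of Hist1h4h was -0.070 to 0.30 with 1 library left out, the lowest without Ctrl eWAT replicate 1.

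For Ctrl eWAT against iWAT, one fit of all libraries called 22 higher; lower calls were 1 without a filter, 0 at 5 FPKM, 1 with all genes and 1 with the block; leaving out 1 library gave 7 to 12 higher and 0 to 1 lower. For Ctrl BAT against iWAT, 13 were lower at 5 FPKM, where fewer genes are tested, 6 were higher with median-ratio scaling, 0 with the block and 2 in one fit, and leaving out 1 library gave 0 to 1 higher and 37 to 40 lower. For BAT against eWAT, 19 were lower at 5 FPKM and 2 higher with median-ratio scaling, and 38 to 43 lower with 1 library left out. With median-ratio scaling the BAT minus iWAT difference turned to 0.0087 for Hist1h2be, 0.073 for Hist1h4i and 0.70 for Hist1h4h (-0.23 to 0.019 with 1 library left out, the highest without Ctrl BAT replicate 1), and the BAT minus eWAT difference to 0.31 for Hist1h2bg and 0.045 for Hist1h4h.

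With this scaling the BAT sums of Ctrl over iWAT and eWAT were 2.18 and 1.39 for H1, 0.787 and 0.415 for H2A, 1.27 and 0.897 for H2B, 0.487 and 0.461 for H3, 0.992 and 0.738 for H4, and 1.13 and 0.716 for all members. Without the top member of the class they were 0.358 and 0.230 for H1, 0.625 and 0.320 for H2A, 0.385 and 0.291 for H2B, and 0.320 and 0.281 for H4, and HuR-FKO over Ctrl was 1.32, 1.28 and 1.23 for H1 in eWAT, iWAT and BAT, and in BAT 1.09 for H2B, 2.34 for H3 and 1.33 for H4. Depth limits members near 1 FPKM, and reads shared by near-identical copies limit single genes more than class sums.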
